A study of Mus musculus with 12 samples.

Results

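The 10 genes described here carry the steps by which insulin draws glucose into heart muscle: the glucose transporter genes Slc2a1 and Slc2a4, the receptor and adaptor genes Insr, Irs1, Irs2 and Pik3r1, the kinase gene Akt2, the Rab regulators Tbc1d1 and Tbc1d4, and Txnip. They were chosen by name out of 33641 gene symbols in the expression table, and the transcript rows of each symbol (65 rows in all) were summed to a gene. RNA was measured in myocardium of 12 male wild-type C57BL/6 mice, about 16 weeks old at harvest, in 4 groups of 3: sham vehicle, sham prednisone, MI vehicle and MI prednisone. For all libraries the labels also give an age of 10 weeks in the protocol. MI groups had surgery producing a myocardial infarction and sham groups a sham operation. Prednisone, a synthetic glucocorticoid, was injected intraperitoneally at 1 mg/kg once a week for 6 weeks from 2 weeks after surgery, at lights-on, and hearts were taken 24 hours after the last dose. Vehicle mice were followed on the same schedule. The labels give the tissue only as myocardium, without its position relative to the infarct. Replicates are different mice.

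Insulin binds its receptor, whose kinase phosphorylates the adaptor proteins IRS1 and IRS2. These recruit PI3-kinase, of which Pik3r1 encodes the regulatory subunit, and the lipid it makes activates AKT2. AKT2 then phosphorylates TBC1D4 and TBC1D1, which otherwise hold Rab proteins inactive, and GLUT4 vesicles move to the cell surface. TXNIP acts the other way: it lowers glucose uptake by promoting removal of glucose transporters from the surface, and its gene responds to intracellular sugar phosphates. The heart depends mostly on fatty acids, and GLUT4 is its main insulin-responsive transporter, whereas GLUT1 serves basal uptake.

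Values are TPM, the share of each library scaled by transcript length, and changes are differences of group means of log2(TPM + 1), a scale on which low genes move less than their ratio. A gene was called when its limma p, adjusted by the Benjamini-Hochberg method over 13158 genes, was under 0.05. All 10 genes passed the filter of 1 TPM in 3 libraries. The libraries differed as wholes. Between 11690 and 14307 genes reached 1 TPM, most of all in MI vehicle replicate 3, whose median gene stood 0.74 (log2) above the sham vehicle mean. In the 3 MI prednisone libraries, transcript rows from the 3′ part of genes held 74.8%, 74.0% and 71.9% of the TPM of 3′-part plus 5′-part rows (2389 other genes), against 64.3% to 67.4% in the other 9 libraries. Protein-coding rows held 70.0%, 65.6% and 74.1% of all TPM in the MI prednisone libraries, against 74.3% to 79.3% in the others. Retained-intron rows held 2.07%, 2.61% and 1.70%, against 1.31% to 2.02% in the others, the highest of these being MI vehicle replicate 3. Cardiomyocyte markers were abundant in every library (8 genes, 22585 to 37855 TPM summed). In bulk tissue, fewer cells of a type and less RNA per cell cannot be told apart.

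Over the 12 libraries the genes ranked, by mean TPM, Txnip (187), Slc2a4 (137), Akt2 (68.7), Tbc1d4 (18.5), Insr (14.98), Pik3r1 (13.2), Tbc1d1 (8.05), Slc2a1 (5.42), Irs2 (3.09) and Irs1 (2.07). TPM is scaled by transcript length, so these levels can be set beside each other. They sum coding and non-coding transcript rows, and part of the order depends on this. In protein-coding rows alone, mean Tbc1d4 (10.2) was below Insr (14.8) and Pik3r1 (13.0), and Slc2a1 (2.42) was below Irs2 (3.09). The first 3 genes did not overlap with the other 7 in any library, since Akt2 was never below 52.1 TPM and Tbc1d4 never above 25.02 TPM. The ranges of neighbours from Tbc1d4 to Irs1 overlapped.

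**Figure D1:**
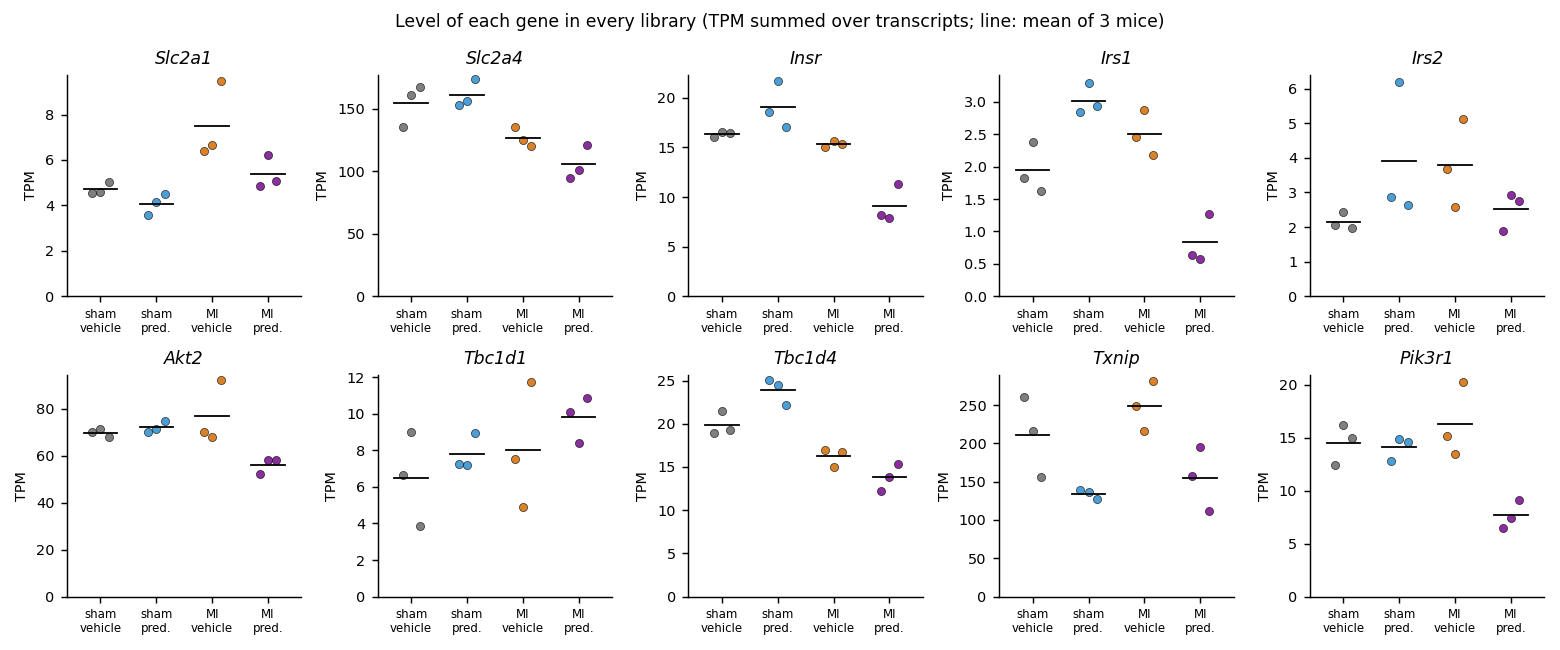
Level of each of the 10 genes in TPM (vertical axes, from 0) in every library, by group; points are mice and lines are means of 3. Insr, Irs1, Akt2 and Pik3r1 lie lowest in MI prednisone, and Txnip lies lower in each prednisone group than in the vehicle group of the same surgery.

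In mice given vehicle, 1 of the 10 genes was called higher after MI and none lower, against 15.1% of all genes called higher and 0.904% called lower (16% in all). The called gene was Slc2a1. The median change of the 10 genes was 0.20, against 0.39 over all genes. In mice given prednisone, 5 of 10 were lower after MI (Slc2a4, Insr, Irs1, Tbc1d4 and Pik3r1) and none higher, against 14.1% of all genes lower and 2.73% higher (16.8% in all), with medians of -0.51 and -0.06. After median-ratio rescaling, explained below, 4 were lower (Slc2a4 no longer) and 1 higher (Slc2a1), with a median of -0.44 for the 10.

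Among infarcted hearts, 5 of 10 genes were called lower with prednisone (Insr, Irs1, Akt2, Pik3r1 and Txnip) and none higher, against 34.9% of all genes lower and 2.5% higher (37.4% in all). Their median change was -0.43 and that of all genes -0.41, so that the 10 genes as a list lay close to the background. After median-ratio rescaling, which centres the typical gene, Irs1 and Pik3r1 were called lower and Tbc1d1 higher, against 13.8% of all genes lower and 14.3% higher, and the 10 genes had a median of -0.04. Among sham hearts none was called, with 0.114% of all genes called (0.0532% higher and 0.0608% lower). At an unadjusted p under 0.05, 3 of the 10 passed in sham hearts (Irs1, Tbc1d4 and Txnip), against 3.56% of all genes. The prednisone effect differed between MI and sham hearts in 3 genes (Insr, Irs1 and Pik3r1, each lower), against 20.7% of all genes lower and 0.54% higher (21.3% in all). Counted by groups that do not overlap, 2 genes were higher and 3 lower after MI under vehicle (40.8% and 4.17% of all genes), 1 and 6 after MI under prednisone (12.9% and 32.2%), 0 and 6 with prednisone in MI (3.59% and 42.6%) and 4 and 2 with prednisone in sham (15.6% and 2.58%). Each group enters more than 1 of these comparisons, so the counts are not independent of each other.

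**Figure D2:**
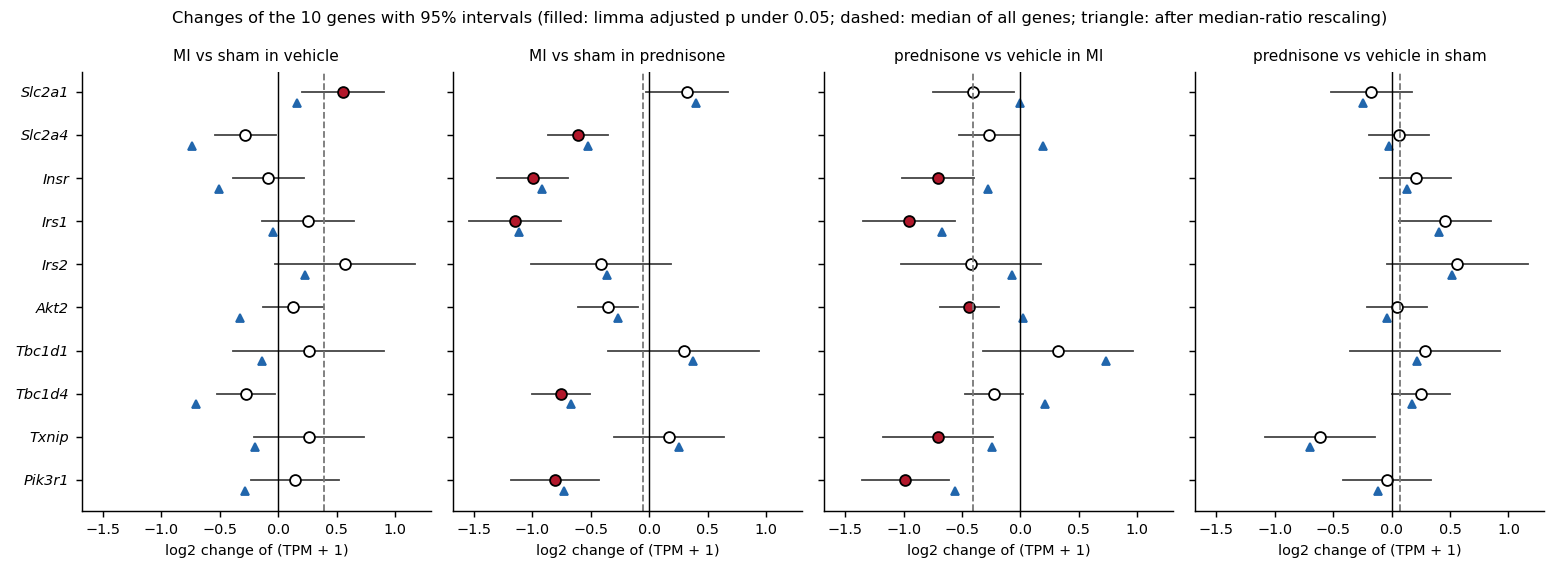
Log2 change of (TPM + 1) of each gene (horizontal axis) with its 95% interval in 4 comparisons. Filled points have a limma adjusted p under 0.05, the dashed line is the median of all genes, and triangles give the value after median-ratio rescaling: the 5 filled points for prednisone in MI all lie left of the dashed line.

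Slc2a1 encodes GLUT1, the basal glucose transporter (ENSMUSG00000028645.11, chromosome 4, 119108711 to 119137983, plus strand, GRCm38 as for all coordinates here). Its level was 4.54, 4.59 and 5.03 TPM in sham hearts given vehicle, 3.59, 4.17 and 4.49 in those given prednisone, 6.39, 6.65 and 9.47 in MI vehicle and 4.84, 6.22 and 5.06 in MI prednisone. Every MI vehicle library lay above every other library, replicate 3 being the highest, and the MI prednisone libraries lay above the sham prednisone ones and overlapped the sham vehicle ones. Slc2a1 rose after MI under vehicle by 0.55 (SE 0.16, limma adjusted p = 0.0411). That call was lost when any of 9 of the 12 libraries was left out, which were all 6 sham libraries, MI vehicle replicates 2 and 3 and MI prednisone replicate 1 (limma adjusted p from 0.0505 to 0.127, and a change of 0.40 without MI vehicle replicate 3). It was also lost after rescaling (0.16, limma adjusted p = 0.347), and the adjusted p ranged from 0.0179 to 0.538 over all alternatives. In MI vehicle the markers of fibroblasts were also higher (8 of 8 called, 4 of 8 after rescaling, 934 to 1269 TPM summed against 392 to 529 in sham vehicle). So were those of macrophages (8 of 8, 4 of 8 after rescaling, 684 to 1451 against 313 to 438). Those of endothelium were higher in 6 of 8 (0 of 8 after rescaling, 326 to 436 against 250.2 to 280.4). Of all genes 15.1% were called higher, and 3.24% after rescaling. The part of these cell types in the Slc2a1 result was not tested. The prednisone difference within MI was -0.40 (95% interval -0.75 to -0.05, limma adjusted p = 0.0654), and -0.49 without MI vehicle replicate 1 (limma adjusted p = 0.0348). After MI under prednisone the Slc2a1 difference was 0.32 (95% interval -0.02 to 0.67, limma adjusted p = 0.195). It was 0.40 and called after rescaling (limma adjusted p = 0.0182). With prednisone in sham it was -0.17 (95% interval -0.52 to 0.18).

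Slc2a1 TPM was split between a coding row, ENSMUST00000030398.9 of 10 exons, and ENSMUST00000174372.2, a row classed as nonsense-mediated decay, of which only 1.31% of 31-base windows occur in no other row of the gene. The coding row had 2.08, 3.88 and 5.10 TPM in MI vehicle and 1.13, 1.47 and 1.79 TPM in MI prednisone, and it fell by 0.88 on the log2 scale with prednisone (SE 0.24, limma adjusted p over 27769 transcript rows = 0.0162, and 0.0624 without MI prednisone replicate 1). The other row had 4.31, 2.45 and 4.36 TPM in MI vehicle and 3.49, 4.75 and 3.28 TPM in MI prednisone, so its groups overlapped. Coding rows held 28.0%, 23.7% and 35.3% of Slc2a1 TPM in MI prednisone and 32.5% to 63.1% in the other groups.

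Slc2a4 encodes GLUT4, the insulin-responsive transporter (ENSMUSG00000018566.14, chromosome 11, 69942539 to 69948188, minus strand). It had 135, 161 and 167 TPM in sham hearts given vehicle, 153, 156 and 173 in those given prednisone, 135, 125 and 120.0 in MI vehicle and 94.8, 101 and 121 in MI prednisone. Every MI library lay below every sham library, although sham vehicle replicate 1 (135.1 TPM) was barely above MI vehicle replicate 1 (135.0 TPM). Slc2a4 fell by 0.61 on the log2 scale after MI under prednisone (SE 0.12, limma adjusted p = 0.00625). The difference under vehicle was -0.28 (95% interval -0.54 to -0.02, limma adjusted p = 0.101). With prednisone in MI it was -0.27 (95% interval -0.53 to -0.0058, limma adjusted p = 0.0953), and -0.37 without MI prednisone replicate 3 (limma adjusted p = 0.0330). The call under prednisone was lost after rescaling (-0.52, limma adjusted p = 0.0800) and after a transcript-length correction (-0.57, limma adjusted p = 0.0740), and the adjusted p ranged from 0.00197 to 0.129 over the alternatives.

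Per 1000 TPM of cardiomyocyte markers, Slc2a4 stood at 4.24, 5.00 and 4.97 TPM in sham hearts given vehicle, 4.67, 4.49 and 4.58 in those given prednisone and 4.79, 4.42 and 5.31 in MI vehicle, and at 2.90, 2.86 and 3.67 in MI prednisone. On that scale the 3 MI prednisone libraries were the lowest of the 12, and the other 3 groups overlapped. The scale depends on the markers taken: Pln, which encodes phospholamban, had 2334, 2288 and 1644 TPM in MI vehicle and 1472, 1343 and 2048 TPM in MI prednisone, whereas the marker sum was higher in MI prednisone. The cardiomyocyte marker sum itself was lower in MI vehicle (22585 to 28271 TPM) than in sham vehicle (31882 to 33667 TPM), with 3 of 8 markers called lower. Slc2a4 TPM divided by Slc2a1 TPM was 29.7, 35.1 and 33.3 in sham hearts given vehicle, 42.7, 37.5 and 38.6 in those given prednisone, 21.1, 18.8 and 12.7 in MI vehicle and 19.6, 16.2 and 23.9 in MI prednisone, lower in every infarcted heart than in any sham heart. Over coding rows only, this ratio was 66.9, 66.3 and 65.7 in MI prednisone, which overlapped the sham groups, and 63.5, 29.3 and 23.0 in MI vehicle.

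The full-length Slc2a4 row, ENSMUST00000018710.12 of 11 exons, had 101, 92.8 and 88.3 TPM in MI vehicle and 85.95, 94.2 and 105 TPM in MI prednisone, with a prednisone difference of 0.0108 (95% interval -0.24 to 0.26). A row of 3 exons from the 5′ end, ENSMUST00000142500.7, had 25.3, 24.9 and 22.8 TPM in MI vehicle and 2.14, 2.45 and 8.33 TPM in MI prednisone. This row fell by 2.44 on the log2 scale (SE 0.34, limma adjusted p = 0.000698). Only 3.44% of its 31-base windows, and 0% of those of the full-length row, occur in no other row of the gene, which counts all rows and not this pair alone. The 5′ row differed in the same direction as the 3′ shift of the MI prednisone libraries given above, whose part in the result was not tested.

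Insr encodes the insulin receptor (ENSMUSG00000005534.10, chromosome 8, 3122061 to 3279617, minus strand). Its level was 16.0, 16.5 and 16.5 TPM in sham hearts given vehicle, 18.5, 21.7 and 17.1 in those given prednisone, 15.03, 15.7 and 15.3 in MI vehicle and 8.19, 7.85 and 11.4 in MI prednisone. The MI prednisone libraries lay below all the others, and the 3 sham prednisone libraries above all the others. With prednisone Insr fell by 0.71 on the log2 scale in MI (SE 0.14, limma adjusted p = 0.00383). After MI under prednisone it fell by 1.00 (SE 0.14, limma adjusted p = 0.00195). The prednisone effects in MI and in sham differed by -0.91 (SE 0.20, limma adjusted p = 0.0127).

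The fall of Insr with prednisone in MI was -0.28 after rescaling (limma adjusted p = 0.320) and 0.00046 after the length correction (limma adjusted p = 0.998), with adjusted p from 0.000938 to 0.998 over the alternatives. The fall after MI under prednisone was -0.50 after the length correction (limma adjusted p = 0.0463, from 0.000182 to 0.0881 over the alternatives). Insr transcripts averaged 8071 bases, weighted by TPM. Across the 593 tested genes of at least 6000 bases the median prednisone change in MI was -0.70, against -0.39 over the 11301 shorter genes. Of the 4 long genes among the 10, Insr, Irs1 and Pik3r1 were called and Irs2 was not. The main Insr row, ENSMUST00000091291.4, with 74.9% of its 31-base windows in no other row, fell by 0.59 (SE 0.14, limma adjusted p = 0.0105), and the 5-exon row ENSMUST00000207100.1 fell by 1.04 (SE 0.21, limma adjusted p = 0.00452).

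Irs1 encodes an adaptor that the activated receptor phosphorylates (ENSMUSG00000055980.2, chromosome 1, 82233101 to 82291416, minus strand), and has a lone transcript row of 9144 bases. It was at 1.82, 2.38 and 1.63 TPM in sham hearts given vehicle, 2.84, 3.29 and 2.93 in those given prednisone, 2.46, 2.88 and 2.18 in MI vehicle and 0.642, 0.582 and 1.27 in MI prednisone. Its levels with prednisone were thus the highest of the sham libraries and the lowest of the MI libraries. Irs1 fell with prednisone in MI by 0.95 (SE 0.18, limma adjusted p = 0.00316), and after MI under prednisone by 1.15 (SE 0.18, limma adjusted p = 0.00245). The difference with prednisone in sham was 0.46 (95% interval 0.06 to 0.85, limma adjusted p = 1.0).

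The prednisone effects on Irs1 differed between MI and sham by -1.41 (SE 0.25, limma adjusted p = 0.00822). Irs1 was the only one of the 10 genes whose interaction was called after rescaling as well (-1.08, limma adjusted p = 0.0422), against 4.39% of all genes lower and 4.29% higher. After the length correction the interaction was -0.57 (limma adjusted p = 0.247, from 0.00248 to 0.325 over the alternatives), and the fall in MI was -0.24 (limma adjusted p = 0.364).

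Irs2 encodes the other main adaptor (ENSMUSG00000038894.7, chromosome 8, 10984681 to 11008458, minus strand). It had 2.06, 2.43 and 1.97 TPM in sham hearts given vehicle, 2.86, 6.19 and 2.64 in those given prednisone, 3.69, 2.58 and 5.12 in MI vehicle and 1.88, 2.93 and 2.74 in MI prednisone. Both treated sham hearts and untreated infarcted hearts lay above sham vehicle without overlap, and sham prednisone replicate 2 was the highest of the 12. None of these differences was called: it was 0.57 for MI under vehicle (95% interval -0.03 to 1.17, limma adjusted p = 0.13), -0.43 for prednisone in MI (95% interval -1.02 to 0.17, limma adjusted p = 0.23) and 0.56 for prednisone in sham (95% interval -0.04 to 1.16, limma adjusted p = 1.0).

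Pik3r1 encodes regulatory subunits of PI3-kinase (ENSMUSG00000041417.15, chromosome 13, 101680563 to 101768217, minus strand). It had 12.4, 16.2 and 15.02 TPM in sham hearts given vehicle, 12.8, 14.9 and 14.6 in those given prednisone, 15.2, 13.5 and 20.3 in MI vehicle and 6.45, 7.44 and 9.16 in MI prednisone. The MI prednisone libraries were below all the others, which overlapped each other. Pik3r1 fell with prednisone in MI by 0.99 (SE 0.17, limma adjusted p = 0.00218), after MI under prednisone by 0.81 (SE 0.17, limma adjusted p = 0.00919), and its interaction was -0.95 (SE 0.24, limma adjusted p = 0.0216). The interaction call was lost without sham vehicle replicate 1 or 3, sham prednisone replicate 2 or 3, or MI prednisone replicate 1 (limma adjusted p from 0.0502 to 0.0635). After rescaling the fall with prednisone in MI was -0.56 (limma adjusted p = 0.0167) and after the length correction -0.29 (limma adjusted p = 0.0983, from 0.00104 to 0.117 over the alternatives). It was the only gene of the 10 still called with prednisone in MI when the fit held the MI groups alone (limma adjusted p = 0.0494). Its main row, ENSMUST00000055518.12, fell by 0.87 (SE 0.17, limma adjusted p = 0.0031). Divided by Pik3ca, which encodes a catalytic partner, Pik3r1 stood at 1.45, 1.19 and 1.19 in MI vehicle and 0.887, 0.983 and 1.01 in MI prednisone, without overlap.

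Akt2 encodes the AKT kinase most tied to glucose uptake (ENSMUSG00000004056.15, chromosome 7, 27591552 to 27640826, plus strand). It had 70.0, 71.3 and 67.9 TPM in sham hearts given vehicle, 70.1, 71.2 and 74.8 in those given prednisone, 70.2, 68.0 and 92.4 in MI vehicle and 52.1, 58.1 and 58.1 in MI prednisone. All libraries outside MI prednisone lay within 67.9 to 74.8 TPM except MI vehicle replicate 3. Akt2 fell with prednisone in MI by 0.44 (SE 0.12, limma adjusted p = 0.0145). Without MI vehicle replicate 3 the fall was 0.30 (limma adjusted p = 0.0216), and without MI prednisone replicate 1 the call was lost (-0.38, limma adjusted p = 0.0589). After rescaling the value was 0.0218 (limma adjusted p = 0.890, from 0.00901 to 0.994 over the alternatives).

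The Akt2 total joined rows that behaved differently. The most abundant row, ENSMUST00000051356.11, had 38.5, 36.7 and 53.1 TPM in MI vehicle and 42.4, 47.5 and 37.1 TPM in MI prednisone (difference -0.0017, 95% interval -0.33 to 0.33). ENSMUST00000167435.7, which has a first exon farther upstream, had 18.7, 21.9 and 24.6 TPM in MI vehicle and 4.44, 1.81 and 14.2 TPM in MI prednisone, and fell by 1.88 (SE 0.45, limma adjusted p = 0.00922). As for Slc2a4, few 31-base windows of these rows occur in no other row of the gene (0% and 1.02%).

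Tbc1d4 encodes AS160, the RabGAP that AKT2 phosphorylates to release GLUT4 vesicles (ENSMUSG00000033083.16, chromosome 14, 101442360 to 101609191, minus strand). As a gene sum it had 18.9, 21.5 and 19.2 TPM in sham hearts given vehicle, 25.02, 24.4 and 22.2 in those given prednisone, 16.9, 15.02 and 16.8 in MI vehicle and 12.2, 13.8 and 15.4 in MI prednisone. Sham prednisone was highest without overlap and both MI groups were below both sham groups. With prednisone in sham the difference was 0.25 (95% interval 0.0027 to 0.50) and was not called. Tbc1d4 fell after MI under prednisone by 0.75 (SE 0.11, limma adjusted p = 0.00219). After MI under vehicle the difference was -0.28 (95% interval -0.53 to -0.03, limma adjusted p = 0.0936). Relative to the typical gene that difference was larger: -0.71 after rescaling (limma adjusted p = 0.0334) and -0.69 after the length correction (limma adjusted p = 0.0254, from 0.0254 to 0.370 over the alternatives). Relative to 1000 TPM of cardiomyocyte markers the groups overlapped. Tbc1d4 then stood at 0.594, 0.668 and 0.572 in sham vehicle and at 0.600, 0.531 and 0.743 in MI vehicle.

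Within Tbc1d4, reads were assigned mainly to a retained-intron row, ENSMUST00000161304.1, which starts inside an intron of the coding rows and has 8 exons, and to coding rows. The stretch found in that row only is shown because it marks the row that rose, while upstream exons of the coding rows, which it lacks, also separate them (GRCm38, chr14:101463057-101463223, minus strand, 167 bases, intronic then exonic). Lower-case letters are the 137 bases whose 31-base windows occur in no other row of the gene, 3.61% of its windows, and capitals mark the 30 bases from which on it reads like other rows:
Tbc1d4 retained-intron start: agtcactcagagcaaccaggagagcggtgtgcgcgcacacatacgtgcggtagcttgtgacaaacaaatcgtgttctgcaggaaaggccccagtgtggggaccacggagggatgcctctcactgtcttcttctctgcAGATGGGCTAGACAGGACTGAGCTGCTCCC

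The retained-intron row had 6.41, 4.85 and 7.30 TPM in MI vehicle and 10.7, 10.9 and 9.45 TPM in MI prednisone, and rose by 0.68 with prednisone (SE 0.16, limma adjusted p = 0.00961). The 19-exon coding row ENSMUST00000161991.7 had 3.40, 5.46 and 4.88 TPM in MI vehicle and 0.762, 0.564 and 0.964 TPM in MI prednisone, and fell by 1.65 (SE 0.18, limma adjusted p = 0.000202). The coding row ENSMUST00000162617.7 was at 2.68, 2.64 and 2.23 TPM in MI vehicle and was at 0 in MI prednisone replicates 1 and 2 and at 1.87e-09 TPM in replicate 3. Coding rows together held 11.3%, 12.7% and 36.4% of Tbc1d4 TPM in MI prednisone and 50.1% to 71.7% in the other 9 libraries. Over all genes too, coding rows held less of the TPM in MI prednisone, as given above. The part of that library-wide difference in the Tbc1d4 shares was not tested. Of the 21 rows holding at least 10% of their gene's TPM, 11 were called lower and 2 higher with prednisone in MI, against 27.1% and 5.92% of all transcript rows (33% in all). The interaction was called for 7 of the 21, all lower, against 15.8% lower and 2.87% higher of all rows (18.7% in all).

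In coding rows alone, Tbc1d4 had 10.7, 14.2 and 12.2 TPM in sham hearts given vehicle, 17.1, 15.2 and 15.9 in those given prednisone, 10.2, 10.2 and 8.40 in MI vehicle and 1.38, 1.75 and 5.60 in MI prednisone. Tested so, an alternative chosen after the data were seen, Tbc1d4 fell with prednisone in MI by 1.59 (limma adjusted p = 0.00191, from 0.00191 to 0.434 over the alternatives). Over all rows the difference was -0.22 (95% interval -0.47 to 0.03, limma adjusted p = 0.137). Which of these values is printed as the Tbc1d4 result therefore depends on the rows counted. With coding rows only, 8 of the 10 genes were lower with prednisone in MI, Slc2a1, Tbc1d1 and Tbc1d4 being added to the 5 above, against 45.3% of all genes lower and 2.17% higher in coding rows. The interaction was then called lower in 7 of the 10, against 29.6% of all genes lower and 0.615% higher.

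Tbc1d1 encodes the related RabGAP, which AMPK also phosphorylates (ENSMUSG00000029174.18, chromosome 5, 64156305 to 64351486, plus strand). Its sum was 6.64, 9.02 and 3.86 TPM in sham hearts given vehicle, 7.28, 7.21 and 8.96 in those given prednisone, 7.51, 4.89 and 11.7 in MI vehicle and 10.1, 8.41 and 10.9 in MI prednisone. It varied widely within groups, and the prednisone difference in MI was 0.32 (95% interval -0.32 to 0.96, limma adjusted p = 0.398). Its direction depended on the processing: it was 0.74 after rescaling (limma adjusted p = 0.0368), 0.92 after the length correction (limma adjusted p = 0.0223) and -1.07 in coding rows alone (limma adjusted p = 0.0230), with adjusted p from 0.0223 to 0.903 over the alternatives. As in Tbc1d4, the row that rose was a 3′ one without a coding sequence: ENSMUST00000140960.2, of 9 exons, had 2.69, 0.867 and 0.729 TPM in MI vehicle and 7.01, 6.37 and 5.31 TPM in MI prednisone (1.66, SE 0.43, limma adjusted p = 0.0141). The call was lost without MI vehicle replicate 3 (1.46, limma adjusted p = 0.0507). It was also lost with 0.1 TPM added before the logarithm in place of 1 (2.27, limma adjusted p = 0.110).

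**Figure D3:**
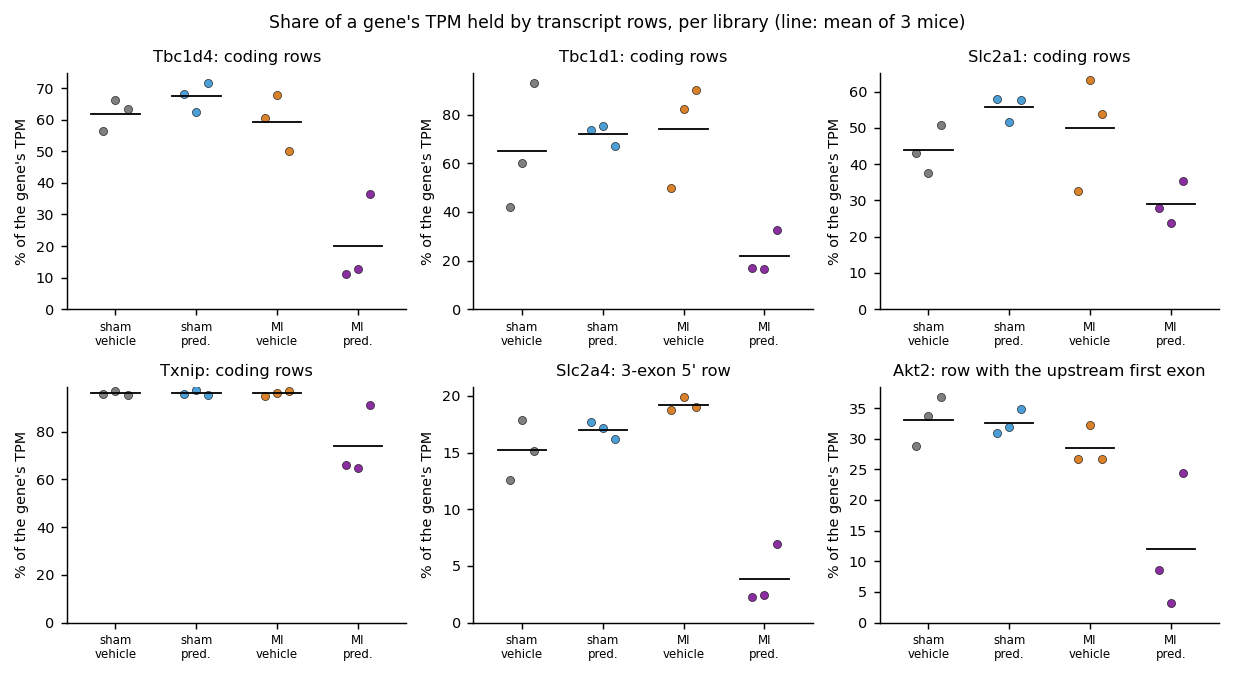
Share of each gene's TPM (vertical axes, %, from 0) held by the named rows in every library, by group; points are mice and lines are means of 3. In MI prednisone the coding rows of Tbc1d4 hold 11.3% to 36.4% and the 5′ row of Slc2a4 stands below all other libraries, with replicate 3 of the group nearest to the rest in each panel.

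MI prednisone replicate 3 was nearest to the other groups in these shares. It also had the smallest 3′ share of its group (71.9%), as the plot of coding share against 3′ share shows. The 3′ shift and the lower coding share of whole libraries coincided with the MI prednisone group. Their part in the shares of these genes was not tested. Coding rows held 17.0%, 16.6% and 32.5% of Tbc1d1 TPM in MI prednisone, below all other libraries (42.0% to 93.1%).

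**Figure D4:**
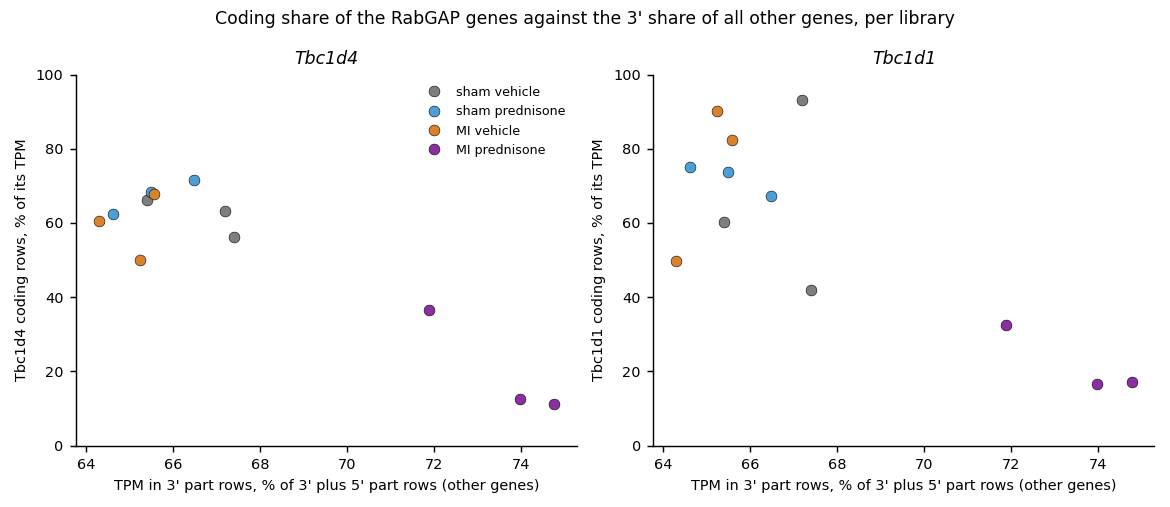
Percentage of the TPM of Tbc1d4 (left) and Tbc1d1 (right) in coding rows (vertical axis) against the percentage of TPM in 3′-part rows over the other genes (horizontal axis), 1 point per library, coloured by group. The 3 MI prednisone libraries stand apart on both axes, at 71.9% to 74.8% on the horizontal axis against 64.3% to 67.4% elsewhere.

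Txnip encodes thioredoxin-interacting protein, which restrains glucose uptake (ENSMUSG00000038393.14, chromosome 3, 96557957 to 96561883, plus strand). It had 260.2, 216 and 156 TPM in sham hearts given vehicle, 139, 136 and 128 in those given prednisone, 249, 216 and 281 in MI vehicle and 157, 196 and 111 in MI prednisone. It was lower with prednisone in all libraries of either surgery, by a narrow margin in each. The nearest libraries in sham were vehicle replicate 3 (156 TPM) and prednisone replicate 1 (139 TPM). In MI they were vehicle replicate 2 (216 TPM) and prednisone replicate 2 (196 TPM). Txnip fell with prednisone in MI by 0.71 (SE 0.21, limma adjusted p = 0.0248), and the difference in sham was -0.61 (95% interval -1.09 to -0.14, limma adjusted p = 1.0). The MI and sham groups overlapped under either treatment.

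The Txnip call in MI was lost without MI vehicle replicate 3 (-0.62, limma adjusted p = 0.0731), without MI prednisone replicate 1 (-0.74, limma adjusted p = 0.0554) and without MI prednisone replicate 3 (-0.49, limma adjusted p = 0.0845). After rescaling it was -0.25 in MI (limma adjusted p = 0.403) and -0.70 in sham (limma adjusted p = 0.772), with adjusted p in MI from 0.000899 to 0.446 over the alternatives. Its 2 coding rows, ENSMUST00000074519.12 and ENSMUST00000049093.7, fell by 1.16 (SE 0.18, limma adjusted p = 0.00115) and by 1.02 (SE 0.18, limma adjusted p = 0.00225). They held 66.2%, 64.9% and 91.3% of Txnip TPM in MI prednisone and 95.2% to 97.3% elsewhere. A list of 14 clock genes moved with treatment as well: its summed TPM was 238 to 276 in sham vehicle and 242 to 289 in MI vehicle, against 113 to 114 in sham prednisone and 82.8 to 94.2 in MI prednisone. Its members went both ways. With prednisone in sham 2 were called higher and 5 lower, against 0.0532% and 0.0608% of all genes. In MI 1 was higher and 10 lower, against 2.5% and 34.9% of all genes. After rescaling 3 were higher and 9 lower in MI, against 14.3% and 13.8% of all genes. A list of glucocorticoid receptor targets had 270 to 419 TPM in MI vehicle and 153 to 216 TPM in MI prednisone, with 6 of 9 genes called lower (3 of 9 after rescaling), against 34.9% of all genes (13.8% after rescaling). The part of these lists in the Txnip values was not tested.

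Txnip and Slc2a1 were the genes of the 10 that were lower with prednisone without overlap after both surgeries. Of all genes, 42.6% were so in MI and 2.58% in sham. After rescaling both genes stood apart in sham only. The Txnip promoter is shown because sugar phosphates act on it (RefSeq, GRCm38.p6, chr3:96557707-96557956, plus strand, the 250 bases before the start). Capitals mark matches, on either strand, to a carbohydrate response element, a FOXO site (GTAAACA) and CCAAT boxes (CCAAT):
Txnip promoter: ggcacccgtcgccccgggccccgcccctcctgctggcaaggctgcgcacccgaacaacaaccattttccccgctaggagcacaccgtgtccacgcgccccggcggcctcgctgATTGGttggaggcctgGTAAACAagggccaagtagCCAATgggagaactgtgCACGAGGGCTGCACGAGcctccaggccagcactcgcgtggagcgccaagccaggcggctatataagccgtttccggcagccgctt

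The carbohydrate response element match begins 85 bases before the start, and such a match is found in 0.365% of 32851 promoter windows, which run from 250 bases before to 50 after the start. The FOXO match, 121 bases before the start, is found in 3.65% of windows and CCAAT in 37.4%. RefSeq windows were matched for 8 of the 10 genes (13 windows). A canonical glucocorticoid response element was in none of these 13 and in 0.00913% of all windows. The E-box CACGTG, which clock factors bind, was in those of Irs1 and Irs2 and in 7.15% of all windows. These are matches of letters in short windows, and sites outside them were not searched.

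The other genes of the pathway were taken as 7 lists of 105 genes, of which 97 could be tested. With prednisone in MI, 47 were called lower and 3 higher, or 48.5% and 3.09%, against 34.9% and 2.5% of all genes (median -0.55, against -0.41 over all genes). By list, the counts lower were 7 of 13 receptor partners and inhibitors, 11 of 24 genes of the PI3-kinase and AKT arm, 13 of 25 of GLUT4 vesicle traffic, 5 of 10 of the AMPK arm, 3 of 10 Txnip partners, 6 of 8 transcription factors and 2 of 7 other transporters and hexokinases. After rescaling, 22 were lower and 12 higher, against 13.8% and 14.3% of all genes. In sham hearts, 0 of 97 were called with prednisone by limma. After MI, 17 were higher and 1 lower under vehicle, or 17.5% and 1.03%, against 15.1% and 0.904% of all genes. After rescaling these were 3 and 4, against 3.24% and 3.22% of all genes. Under prednisone 3 were higher and 25 lower, or 3.09% and 25.8%, against 2.73% and 14.1% of all genes. After rescaling these were 10 and 24, with a median change of -0.18 over the tested pathway genes.

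**Figure D5:**
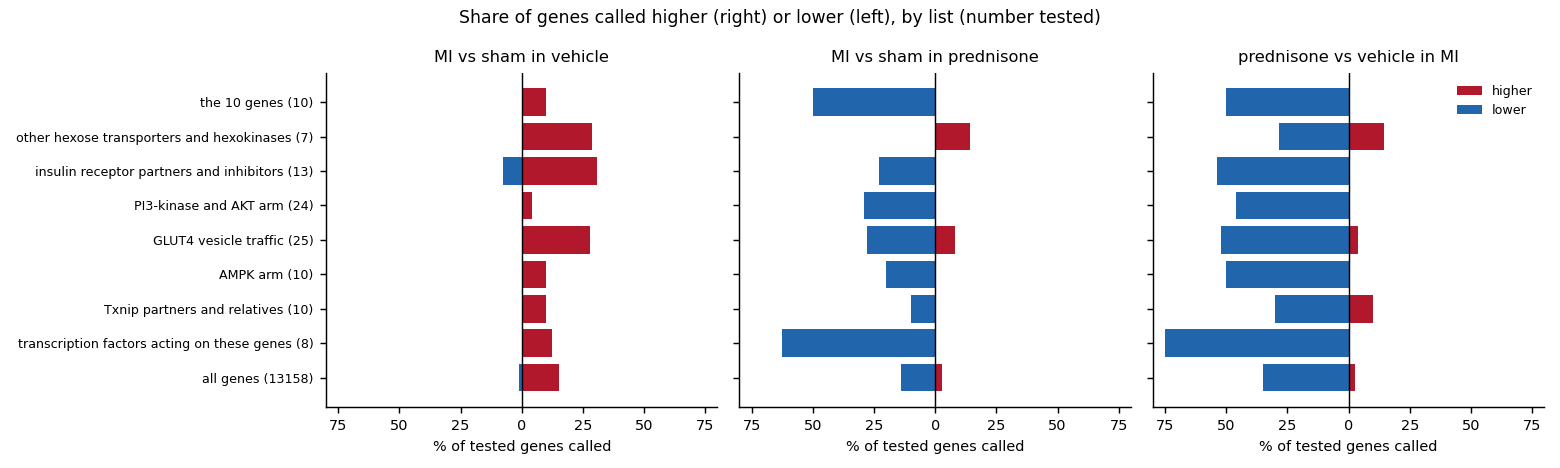
Percentage of tested genes called higher (right, red) or lower (left, blue) by limma in 3 comparisons, for the 10 genes, 7 pathway lists and all genes, with the number tested in parentheses. With prednisone in MI most bars point left, and so does that of all 13158 genes.

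Among these pathway genes, Hk2, the hexokinase that traps glucose as its phosphate in muscle, had 39.2, 34.7 and 30.8 TPM in MI vehicle and 72.7, 76.1 and 53.3 in MI prednisone. It rose with prednisone in MI by 0.92 (SE 0.14, limma adjusted p = 0.00153) and also after rescaling (1.37, limma adjusted p = 0.00246). Lrp1, a cargo receptor of GLUT4 vesicles, rose by 0.48 (SE 0.17, limma adjusted p = 0.0452). Mlxipl, the carbohydrate-sensing factor ChREBP that acts on Txnip, rose by 0.89 (SE 0.28, limma adjusted p = 0.0268), from 5.02, 4.59 and 8.14 TPM to 8.30, 18.3 and 9.98 TPM.

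Among the largest falls with prednisone in MI were those of Lnpep, an aminopeptidase of GLUT4 vesicles (-1.92, SE 0.20, limma adjusted p = 0.000447), and Mef2c, a factor acting on Slc2a4 (-1.40, SE 0.16, limma adjusted p = 0.000547). Lnpep went from 13.0, 13.5 and 15.9 TPM in MI vehicle to 2.43, 2.21 and 4.74 TPM. After MI under prednisone, Ppargc1a, a coactivator of oxidative genes, fell by 1.66 (SE 0.19, limma adjusted p = 0.00116), with Lnpep at -1.96, and Aspscr1, the vesicle tether TUG, rose by 0.61 (SE 0.17, limma adjusted p = 0.0304). The prednisone effect on Gsk3b, the kinase that AKT inhibits, differed between MI and sham by -1.65 (SE 0.27, limma adjusted p = 0.0063).

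After MI under vehicle the called pathway genes with the largest changes included inhibitors of the receptor. Socs3 rose by 1.37 (SE 0.24, limma adjusted p = 0.00989) and the phosphatase gene Ptpn1 by 1.20 (SE 0.27, limma adjusted p = 0.021), each also after rescaling. Grb14, an adaptor that blocks the receptor kinase, fell by 0.33 (SE 0.09, limma adjusted p = 0.0321), from 97.3, 102 and 95.1 TPM to 81.4, 81.5 and 71.0 TPM. Ptpn1 had 10.4, 10.6 and 26.3 TPM in MI vehicle, the last being replicate 3.

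Across the 12 libraries, Insr and Irs1 followed each other most closely among the 10 genes (Pearson r = 0.94 on the log2 scale), then Akt2 and Pik3r1 (0.93) and Slc2a4 and Tbc1d4 (0.90). The lowest value was that of Slc2a1 and Tbc1d4 (-0.55). Among 8115 other genes of at least 5 TPM (8116 for Irs1 and Irs2), those most like each gene were Nudt16l1 for Slc2a1 (r = 0.97), Sod2 and Sucla2 for Slc2a4 (0.98 each), Zfp106 for Insr (0.99), Mapt for Irs1 (0.98), Vps33a for Akt2 (0.99), Impa2 for Tbc1d4 (0.96) and Arhgap35 for Pik3r1 (0.98). The closest genes to Irs2, Tbc1d1 and Txnip were less alike (Dnaja1, 0.90; Dkk3, 0.90; Cirbp, 0.89). These values describe 12 libraries of 4 groups that share the differences between libraries given above, and carry no test.

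With prednisone in MI, markers of other cells moved beside the 10 genes. Fibroblast markers were called lower in 7 of 8 (6 after rescaling, 343 to 595 TPM summed in MI prednisone) and macrophage markers in 6 of 8 (3 after rescaling, 347 to 623 TPM). Atrial markers were higher in 3 of 5, also after rescaling (4364 to 6206 TPM, against 2825 to 4144 in MI vehicle). Endothelial markers were higher in 1 of 8 and lower in 3 of 8 (2 and 0 after rescaling). Of all genes, 34.9% were lower and 2.5% higher, or 13.8% and 14.3% after rescaling. Cardiomyocyte markers were called higher in 3 of 8 and lower in 0 with prednisone in MI (4 and 0 after rescaling). After MI under prednisone, a different comparison, they were lower in 3 of 8 and higher in 0 (1 and 0 after rescaling), against 14.1% of all genes lower before rescaling. Adipocyte markers ranged from 17.9 to 1702 TPM over the 12 libraries, the highest being MI vehicle replicate 3, with 0 of 8 called. Of the skeletal muscle markers, Myh1, Myh2 and Myh4 were listed at 0 in some libraries. The part of these cell types in the results was not tested.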

How the data were processed

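RNA was measured by stranded mRNA sequencing of myocardium from 12 mice, per the labels' protocols. The authors deposited TPM values for 105129 transcript rows, each library summing to 1000000 TPM. The submitters' processing notes name Trimmomatic, HISAT2, kallisto and the build mm10, and the annotation release is not given in the sources used here. TPM carries no read depth, so no counting interval was possible, and precision rests on the spread between 3 mice. Rows were summed by gene symbol, filtered (at least 1 TPM in at least 3 libraries), transformed to log2(TPM + 1) and fitted with limma 3.58.1 in R 4.3.3 (intensity trend, 4 group means, Benjamini-Hochberg over all genes). The script was tested on simulated data.

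The 10 genes, the gene lists and the tests were chosen with earlier results of these data known. All 10 genes are named, with their transcript rows holding at least 10% of a gene's TPM. Log2 changes are given for called genes, for genes whose groups did not overlap, and for all 10 with prednisone in MI. From the pathway lists, the 3 largest called rises and falls of a comparison were eligible (1 such gene is not reported here), and the genes most alike are by Pearson r. The length correction subtracts a loess curve (span 0.5) of each library's deviations on transcript length (GENCODE M21, GRCm38, which holds 94.7% of the rows). Private windows are runs of 31 bases.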

Additional observations from a re-analysis of the deposited data

Results flagged for a closer look

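The prednisone effect differed between infarcted and sham hearts, by the interaction term of the limma fit, for 3 genes and 7 transcript rows. Among genes these were Insr (-0.91, limma adjusted p = 0.0127), Irs1 (-1.41, 0.00822) and Pik3r1 (-0.95, 0.0216). All 3 MI prednisone libraries were the lowest of the 12 for each gene. Among transcript rows they were the 5′ row of Slc2a4, ENSMUST00000142500.7 (-2.67), the Insr rows ENSMUST00000091291.4 (-0.80) and ENSMUST00000207100.1 (-1.15), the lone Irs1 row (-1.41), the Tbc1d4 coding rows ENSMUST00000161991.7 (-2.17) and ENSMUST00000162617.7 (-2.43) and the Pik3r1 row ENSMUST00000055518.12 (-0.84). The interaction was called for 21.3% of all genes and 18.7% of all transcript rows. Leaving out 1 library ended the Pik3r1 gene call in 5 of 12 cases, and those of the Insr and Pik3r1 transcript rows in 5 to 7 (limma adjusted p from 0.0502 to 0.0806). After the length correction the interaction was not called for Insr, Irs1 or Pik3r1 as genes (-0.081, -0.57 and -0.14), nor for the Insr rows ENSMUST00000091291.4 (-0.025, limma adjusted p = 0.952) and ENSMUST00000207100.1 (-0.89, 0.106), the Irs1 row (-0.64, 0.139) or the Pik3r1 row (-0.11, 0.724). It was called for the Slc2a4 row (-2.43, 0.0178) and the Tbc1d4 rows (-1.45, 0.00318 and -1.80, 0.00493). After rescaling, the Irs1, Slc2a4 and Tbc1d4 rows were called and the Insr and Pik3r1 rows were not.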

How the results depend on the processing

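Limma without the trend and a pseudocount of 0.1 changed none of the 31 gene results. Among transcript results, the pseudocount of 0.1 ended 1 call, that of the Tbc1d1 row ENSMUST00000140960.2 with prednisone in MI. The replicate numbers did not pair the mice (4 of 18 same-numbered pairs correlated above 0.1, r from -0.58 to 0.28). With these numbers as a block, the genes called among the 10 were 0 in MI against sham under vehicle, and all genes called were 1056 there and 7 for prednisone in sham; the block changed no other call among the 10.

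Of the 10, MI against sham under vehicle gave 0 calls with no filter, with the MI and sham vehicle groups alone, with the length correction and block, with the most abundant transcript and with coding rows only. MI against sham under prednisone gave 3 with the length correction and 0 with the block added. Prednisone in MI gave 3 after rescaling, 1 with its groups alone, 1 with the length correction (with or without the block) and 8 with coding rows only. The interaction gave 1, 0, 0 and 7 after rescaling, length correction, that with the block, and coding rows only. In coding rows 45.3% of all genes were called lower and 2.17% higher with prednisone in MI, and 29.6% and 0.615% for the interaction. Leaving out each library in turn, the calls among the 10 ranged from 0 to 1, 5 to 7, 3 to 6 and 2 to 4 in the same order, and were 0 in sham.

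All genes called were 2100 in MI against sham under vehicle, and 850 after rescaling, 1068 with no filter, 2 with the groups alone, 632 with the length correction, 70 with the block added and 789 transcript rows. Under prednisone 2213 became 3344 after rescaling, 3648 without mitochondrial, nuclear-copy and globin rows, 942 with the length correction and block, and 6204 transcript rows. For prednisone in MI 4917 became 808 with the groups alone, 1956 with the length correction, 1368 with the block added and 9169 rows. For prednisone in sham 15 became 6 with the length correction and block. For the interaction 2797 became 1141 after rescaling, 243 and 110 with the length correction without and with the block, and 5185 rows. Without 1 library the counts ranged from 120 to 5631, 1027 to 3971, 3245 to 6274, 4 to 18 and 1111 to 4520.

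Values that changed sign were, for prednisone in MI after rescaling, Slc2a4 (0.19), Akt2 (0.0218) and Tbc1d4 (0.21); after the length correction, with or without the block, Slc2a1 (0.0667), Slc2a4 (0.15), Insr (0.00046), Irs2 (0.27), Akt2 (0.0469), Tbc1d4 (0.41) and the main Insr row (0.0849); by the most abundant transcript, Slc2a1 (0.0549), Slc2a4 (0.0108), Tbc1d1 (-0.99) and Tbc1d4 (0.68); and in coding rows Tbc1d1 (-1.07). In MI against sham under prednisone these were Slc2a1 in coding rows (-0.37) and, by the most abundant transcript, Akt2 (0.16) and Tbc1d4 (0.47). For prednisone in sham they were Slc2a1 in coding rows (0.0942) and Tbc1d4 by the most abundant transcript (-0.0281). The cause was not tested. Read depth is unknown from TPM, and with 3 mice a group the shared spread of all 12 libraries carries most of the power.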
